A study of Mus musculus with 8 samples.

Results

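The nuclear-encoded subunits of the oxidative phosphorylation chain were described in mouse cardiac fibroblasts treated with TGF-β1. They were taken as the protein-coding rows of the count table whose symbols start with Nduf followed by a, b, c, s or v and a digit, with Uqcr, with Cox4 to Cox8 or with Atp5, or read Sdha to Sdhd. This gave 88 of 56748 rows, of which 39 belong to complex I, 4 to complex II, 8 to complex III, 19 to complex IV and 18 to complex V. The symbols, not measured values, chose the rows, but this family was picked with earlier results of these data known. One group was 4 libraries of primary wild-type (WT) fibroblasts given recombinant TGF-β1 at 10 ng/mL for 48 h, called TGFb here. The other 4 libraries were primary WT fibroblasts with no treatment. All cells came from hearts of 1-day-old C57BL/6J mice and were grown in serum-containing medium after a short plating step that keeps adherent cells, and the series design states that replicates came from different litters. Cultured neonatal fibroblasts are a model outside the heart, and the labels do not say whether a TGFb and an untreated culture with the same number share a litter.

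The respiratory chain sits in the inner mitochondrial membrane. Complex I and complex II pass electrons from NADH and succinate to coenzyme Q, complex III passes them on to cytochrome c and complex IV to oxygen, and complex V, the ATP synthase, uses the proton gradient built on the way. Most subunits are encoded in the nucleus and imported, while a small catalytic core comes from mitochondrial DNA, so that each complex except complex II is assembled from both genomes. TGF-β1 is known to turn cardiac fibroblasts into matrix-producing myofibroblasts.

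Library totals ran from 14340740 to 17176898 counts, and 20662 to 21295 genes had at least 1 count. Levels are given as CPM, the usual depth-scaled read count, with each library size corrected by edgeR's TMM factor. Of the 8 cardiac fibroblast markers, all tested, the collagen genes Col1a1 and Col1a2 and the matrix gene Postn rose and the other 5, among them Pdgfra and Tcf21, fell, with a median log2 fold change of −0.27, while their sum, set mostly by Col1a1, was 18944 to 20301 CPM in TGFb and 14092 to 15572 CPM in untreated libraries. Cardiomyocyte markers were also present: 19 of 20 were tested, 16 of them were lower in TGFb, and they summed to 470.2 to 550.3 CPM in TGFb and 860.4 to 940.6 CPM in untreated libraries. Of the 5 red cell markers none was tested, and 3 had no count in any library. Untreated replicate 1 stood apart in that ribosomal RNA genes took 0.0322% of its counts, against 1.05% to 2.47% in the TGFb libraries and 2.05% to 2.40% in the other untreated libraries. It was also the lowest of the 4 untreated libraries for 42 of the 81 tested subunits, against 3799 of all 13960 genes tested. Untreated 1 was lowest as well for 68 of 85 cytosolic and 38 of 77 mitochondrial ribosomal protein genes, so this was not particular to the subunits. Results are therefore given with and without it.

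Several known regulators of respiratory genes bind short motifs near their start sites, among them NRF1, ETS-family factors including GABP, YY1 and the estrogen-related receptors (ERR). RefSeq start-site windows on GRCm38.p6, from 250 bases before to 50 bases after the start, were found for 66 of the 81 tested subunits. The 4 windows printed here are those of Uqcrc1 and Atp5g1, whose mRNA was higher in TGFb libraries, and of Sdhd and Cox6a1, whose mRNA was not called. They are the windows at chr9:108936398-108936697, plus strand for Uqcrc1, chr11:96075582-96075881, minus strand for Atp5g1, chr9:50603800-50604099, minus strand for Sdhd and chr5:115348909-115349208, minus strand for Cox6a1, each read in the direction of the gene. Capitals mark matches on either strand to GCGCANGCG (NRF1), CCGGAAG (ETS), AAGATGGC (YY1) and AAGGTCA (ERR), and a palindromic match counts once on each strand.
Uqcrc1: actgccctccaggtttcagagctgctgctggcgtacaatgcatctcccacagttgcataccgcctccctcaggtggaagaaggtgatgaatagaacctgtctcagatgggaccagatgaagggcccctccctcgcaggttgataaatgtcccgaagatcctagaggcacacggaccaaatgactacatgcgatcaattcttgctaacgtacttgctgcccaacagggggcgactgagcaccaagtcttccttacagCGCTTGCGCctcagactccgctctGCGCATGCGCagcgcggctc
Atp5g1: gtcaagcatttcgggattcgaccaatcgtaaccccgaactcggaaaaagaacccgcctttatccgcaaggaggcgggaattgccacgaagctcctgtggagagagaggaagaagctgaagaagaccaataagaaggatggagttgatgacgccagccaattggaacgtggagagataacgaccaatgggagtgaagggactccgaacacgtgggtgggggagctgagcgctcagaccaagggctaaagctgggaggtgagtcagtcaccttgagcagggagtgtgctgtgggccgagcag
Sdhd: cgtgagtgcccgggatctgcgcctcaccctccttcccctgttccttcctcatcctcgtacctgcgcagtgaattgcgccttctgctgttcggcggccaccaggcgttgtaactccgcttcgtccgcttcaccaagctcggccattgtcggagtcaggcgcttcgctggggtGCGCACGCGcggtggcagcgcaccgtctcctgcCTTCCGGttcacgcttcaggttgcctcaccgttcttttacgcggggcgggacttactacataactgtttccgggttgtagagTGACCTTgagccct
Cox6a1: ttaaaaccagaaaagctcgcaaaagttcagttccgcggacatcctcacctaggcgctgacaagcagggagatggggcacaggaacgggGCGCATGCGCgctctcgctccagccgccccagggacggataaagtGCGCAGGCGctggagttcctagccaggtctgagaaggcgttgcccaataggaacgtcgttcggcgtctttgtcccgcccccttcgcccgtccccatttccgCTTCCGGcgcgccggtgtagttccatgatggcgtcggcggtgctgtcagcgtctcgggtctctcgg
The Uqcrc1 window held 3 NRF1 matches, the Atp5g1 window held no match to any of the 4 motifs, the Sdhd window held 1 match each for NRF1, ETS and ERR, and the Cox6a1 window held 3 NRF1 matches and 1 ETS match. The NRF1 letters occurred in 19 of the 66 subunit windows, or 28.8%, and in 8.83% of 17491 windows of protein-coding genes of the same length. For ETS the shares were 24.2% of the subunit windows and 11.9% of all windows, for YY1 13.6% and 3.22%, and for ERR 12.1% and 4.08%. Among the 9 windows of subunits higher in TGFb, 1 held the NRF1 letters, 2 the ETS letters, 2 the YY1 letters and 0 the ERR letters. Among the 57 windows of subunits not called, the counts were 18, 14, 7 and 8. These matches are letters in a window and were not tested against the fold changes.

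Across all 13960 genes tested with the edgeR quasi-likelihood test, 5030 or 36.0% passed an adjusted p of 0.05 (Benjamini-Hochberg), 2451 or 17.6% as higher in TGFb and 2579 or 18.5% as lower. With library totals as the scaling this split was 1304 higher and 3670 lower, and with a gene length trend taken out it was 4055 higher and 2021 lower. The length trend was fitted to each library's deviation from the gene means, so taking it out also moved the scaling. The median log2 fold change of all genes was then 0.080, against 0.0068 with TMM factors alone. Of the 88 subunits, 84 had a count in some library and 81 passed the filter on low counts. Among these 81, 13 rose, 1 fell and 67 were not called, so that 17.3% were called, against 36.0% of all genes. The 13 that rose were Ndufs1, Ndufs8, Ndufv2, Ndufa10, Ndufa2, Ndufa9, Ndufs4, Uqcrq, Uqcrc1, Uqcrc2, Atp5g1, Atp5b and Atp5md, and the 1 that fell was Cox4i2. Their rises were small, from 0.10 ± 0.035 for Atp5b to 0.28 ± 0.053 for Atp5g1 on the log2 scale (SE of the fit), and no subunit rose by 0.5 or more, a size that 492 of all genes tested reached with a call as higher. In bulk RNA, fewer cells of a type and less RNA per cell cannot be told apart.

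By complex, 7 of 37 tested subunits of complex I rose, 0 of 4 of complex II, 3 of 8 of complex III, 0 of 15 of complex IV and 3 of 17 of complex V, against 17.6% of all genes. The median log2 fold change of the 81 subunits was 0.058 with TMM factors and −0.022 with library totals, against 0.0068 and −0.073 for all genes tested. The change of scaling moved both medians down by 0.080. As scaling shifts all genes nearly alike, the subunit median stayed 0.052 above that of all genes, which is no check of that gap. Settings that could alter the gap did so: it was 0.029 without untreated 1 and 0.015 with a gene length trend taken out. With TMM factors the medians by complex were 0.090 for complex I, −0.033 for complex II, 0.056 for complex III, 0.032 for complex IV and 0.063 for complex V, and with library totals they were 0.0094, −0.11, −0.024, −0.050 and −0.017. Of the 81 fold changes, 76 lay within 0.25 of 0 on the log2 scale, or 93.8%, against 65.4% of all genes tested. For 52 of the 67 subunits not called, the whole 95% interval of the log2 fold change lay within 0.25 of 0. The median standard error was 0.055 for the subunits and 0.080 for all genes.

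**Figure D1:**
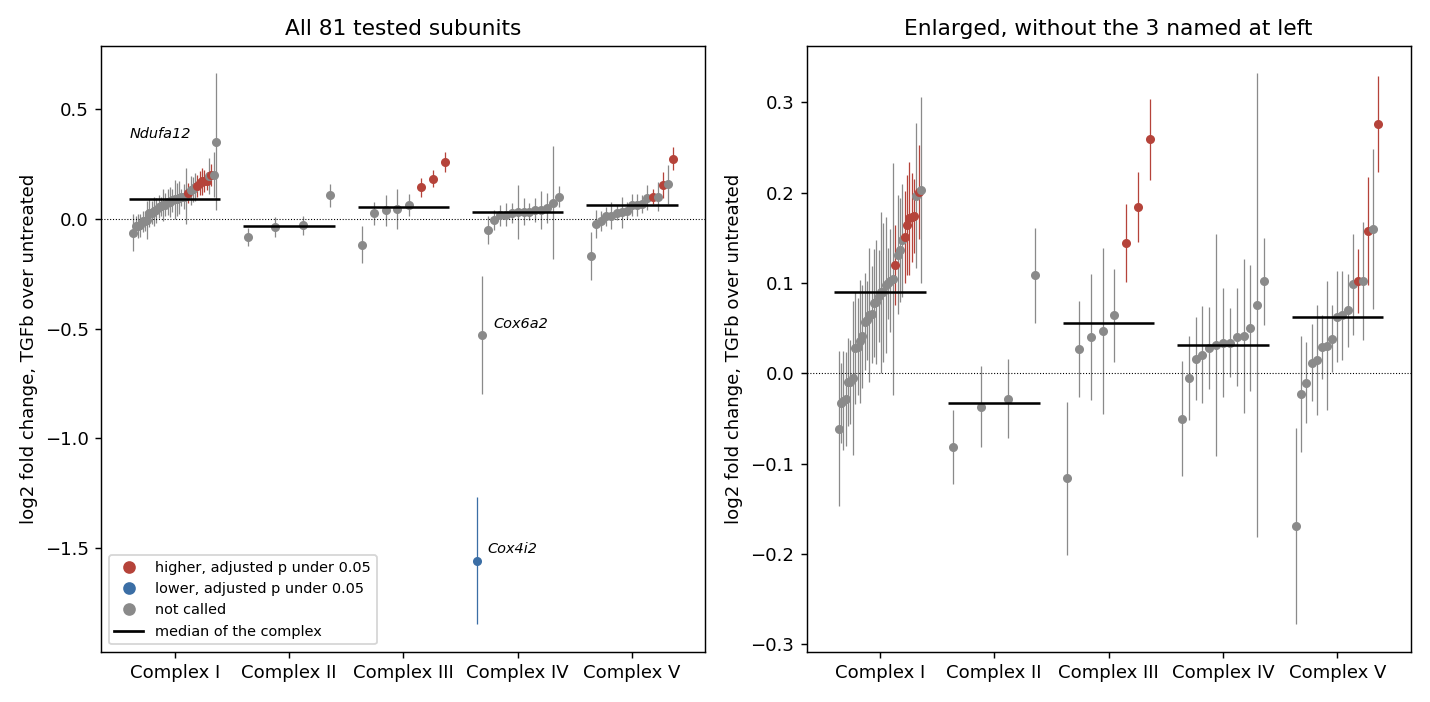
Log2 fold change of TGFb over untreated libraries (y axis) for the 81 tested subunits by complex (x axis), with the standard error as a bar and the median of each complex as a black line; the right panel enlarges all but Ndufa12, Cox6a2 and Cox4i2. Red points were called higher, blue lower and grey not called; 76 of the 81 points lie within 0.25 of 0, and Cox4i2 at −1.56 stands far below the rest.

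Summed over their genes, the subunits lay close together in the groups. All 88 subunits together took 0.713% to 0.747% of the counts of the TGFb libraries and 0.722% to 0.746% of those of the untreated libraries, so the groups overlapped in their raw share. After TMM scaling they summed to 7435, 7626, 7363 and 7386 CPM in TGFb libraries 1 to 4, against 6866, 7315, 7127 and 7206 CPM in untreated libraries 1 to 4. The lowest TGFb library then lay above the highest untreated one, by less than the gap between untreated 1 and the other untreated libraries. Complex I summed to 2088 ± 27.6 CPM in TGFb and 1969 ± 57.3 CPM in untreated libraries (SD, n = 4 each), and complex III to 710.0 ± 15.9 and 647 ± 16.5 CPM, both without overlap between the groups. Complex V also did not overlap, with 2858 to 2958 CPM in TGFb and 2672 to 2812 CPM in untreated libraries. Complex II summed to 454 ± 16.8 CPM in TGFb and 460.5 ± 6.37 CPM in untreated libraries, and complex IV to 1312 ± 38.6 and 1293 ± 64.1 CPM, and in both the groups overlapped.

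**Figure D2:**
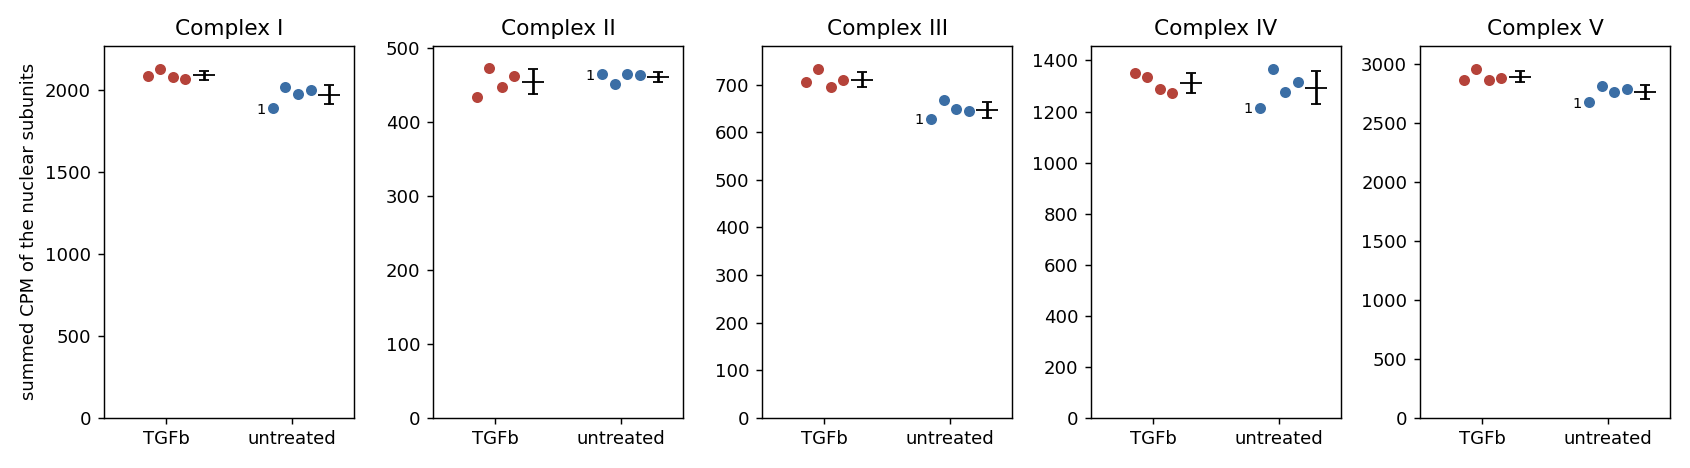
Summed CPM of the nuclear subunits of each complex (y axis, from 0) in each TGFb and untreated library (x axis), with mean and SD (n = 4); the digit 1 marks untreated replicate 1. With TMM factors the TGFb libraries lie above the untreated ones for complexes I, III and V and overlap them for II and IV, while the raw share of counts taken by all subunits overlaps between the groups.

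Complex I, the NADH dehydrogenase, is built from core subunits that carry the flavin and the iron-sulfur clusters and from accessory subunits around them. Of its 7 nuclear core subunits, Ndufs1, Ndufs8 and Ndufv2 rose and 4 were not called. Ndufs1, the largest iron-sulfur subunit of the NADH-oxidising arm (ENSMUSG00000025968, chr1:63182755-63215992 on GRCm39), had 92.0, 95.04, 99.0 and 95.2 CPM in TGFb libraries 1 to 4, against 83.0, 84.6, 84.5 and 85.8 CPM in untreated libraries 1 to 4. All 4 TGFb libraries lay above all 4 untreated libraries. Its log2 fold change was 0.17 ± 0.041 (edgeR adjusted p = 0.00185), and 0.16 without untreated 1 (adjusted p = 0.00860). The iron-sulfur subunit Ndufs8 had 67.4, 63.4, 66.9 and 73.2 CPM in TGFb libraries 1 to 4, against 55.3, 62.6, 64.3 and 59.9 CPM in untreated libraries 1 to 4, and Ndufv2, which holds a further cluster in the same arm, had 73.0, 76.0, 68.9 and 72.4 CPM in TGFb libraries and 61.7, 69.1, 68.8 and 62.0 CPM in untreated libraries. In both genes untreated 1 was the lowest library, and the groups overlapped. Ndufs8 rose by 0.16 ± 0.056 (edgeR adjusted p = 0.0244) and Ndufv2 by 0.15 ± 0.051 (edgeR adjusted p = 0.0247), and both lost the call without untreated 1, where the log2 fold changes were 0.12 and 0.12. Ndufv1, which binds the flavin and NADH, had a log2 fold change of −0.033 ± 0.045 with a 95% interval of −0.13 to 0.060.

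Of the 30 tested accessory subunits of complex I, 4 rose and none fell. Ndufa10 (ENSMUSG00000026260, chr1:92366732-92401582 on GRCm39), an accessory subunit of the membrane arm, had 102, 97.5, 93.7 and 88.7 CPM in TGFb libraries 1 to 4, against 76.1, 81.8, 85.7 and 88.3 CPM in untreated libraries 1 to 4. The groups did not overlap, but the lowest TGFb library and the highest untreated library were close to each other. Its log2 fold change was 0.20 ± 0.052 (edgeR adjusted p = 0.00391) and 0.16 without untreated 1, the lowest library (adjusted p = 0.0230). Ndufa2 (ENSMUSG00000014294, chr18:36875385-36877610 on GRCm39), an accessory subunit of the matrix arm, had 65.1, 67.8, 67.8 and 66.5 CPM in TGFb libraries 1 to 4, against 57.3, 64.1, 57.6 and 58.1 CPM in untreated libraries 1 to 4. Its groups did not overlap either, and untreated 2 was well above the other untreated libraries. It rose by 0.17 ± 0.049 (edgeR adjusted p = 0.00819), and by 0.15 without untreated 1 (adjusted p = 0.0320). Ndufs4, an accessory subunit whose loss causes a Leigh-like disease in mice, had 43.0, 41.6, 41.4 and 37.6 CPM in TGFb libraries 1 to 4, against 32.7, 37.8, 37.1 and 37.4 CPM in untreated libraries 1 to 4. Untreated 1 was far below every other library here, and TGFb 4 lay between the untreated libraries. Its log2 fold change of 0.17 ± 0.063 (edgeR adjusted p = 0.0360) became 0.12 without untreated 1 and was then not called (adjusted p = 0.162). Ndufa9, which sits where the matrix arm meets the membrane arm, rose by 0.12 ± 0.045 (edgeR adjusted p = 0.0409) with no overlap between groups, and was not called without untreated 1 (adjusted p = 0.10).

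The other 26 accessory subunits were not called, and without Ndufa12 their log2 fold changes ran from −0.061 for Ndufa5 to 0.20 for Ndufb1. Ndufa3 had a fold change as large as that of Ndufa10, at 0.20 ± 0.080, with a wider spread (edgeR adjusted p = 0.0606), and 62.5% of its exonic bases lie under exons of genes on the other strand, so that its count cannot be told apart from theirs where the strand of the counting is not given. The same limit holds for Ndufb11, with 67.8% of its exonic bases so placed, and in part for the called Atp5md of complex V, with 44.9%. It also holds in part for Ndufs7, Ndufb1, Ndufa13 and Cox5a, not called, with 49.4%, 45.0%, 43.3% and 41.4%. Among other called subunits, Uqcrc2 had 29.7% and Atp5b 23.1%. Ndufa4, named as a complex I subunit but now seen as part of complex IV, had 107, 102, 94.4 and 93.6 CPM in TGFb libraries 1 to 4, against 92.7, 103, 101 and 102 CPM in untreated libraries 1 to 4. Its log2 fold change was −0.0097 ± 0.049, and the libraries of both groups were mixed. Its paralogue Ndufa4l2, known as a target of hypoxia-inducible factor, had 5, 9, 12 and 11 counts in TGFb libraries 1 to 4, against 5, 7, 11 and 9 counts in untreated libraries 1 to 4, and was too low to be tested. Ndufb11b had no count in any library.

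Ndufa12, an accessory subunit of the matrix arm, was the member most affected by a single library. It had 97, 106, 212 and 247 counts in TGFb libraries 1 to 4, against 270, 67, 100 and 93 counts in untreated libraries 1 to 4. Untreated 1 was the highest of all 8 libraries. With it the log2 fold change was 0.35 ± 0.31 and was not called (edgeR adjusted p = 0.413), and without it 0.98 and called as higher (adjusted p = 0.00133). The processed pseudogene Ndufa12-ps on chromosome 5, which matches 32.03% of the Ndufa12 transcript at 95% identity or more, had 488, 473, 357 and 457 counts in TGFb libraries, against 325, 564, 371 and 480 in untreated libraries. The copy was lowest in untreated 1, where Ndufa12 was highest, and it held 74.7% of the counts of both. Summed over both, the level was 40.8 ± 0.964 CPM in TGFb and 36.8 ± 4.66 CPM in untreated libraries, with a log2 fold change of 0.15 ± 0.072 (edgeR adjusted p = 0.110) and, without untreated 1, of 0.18 ± 0.076 (adjusted p = 0.0727). Since the counting could split reads between near-identical copies, the value of Ndufa12 alone is uncertain.

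**Figure D3:**
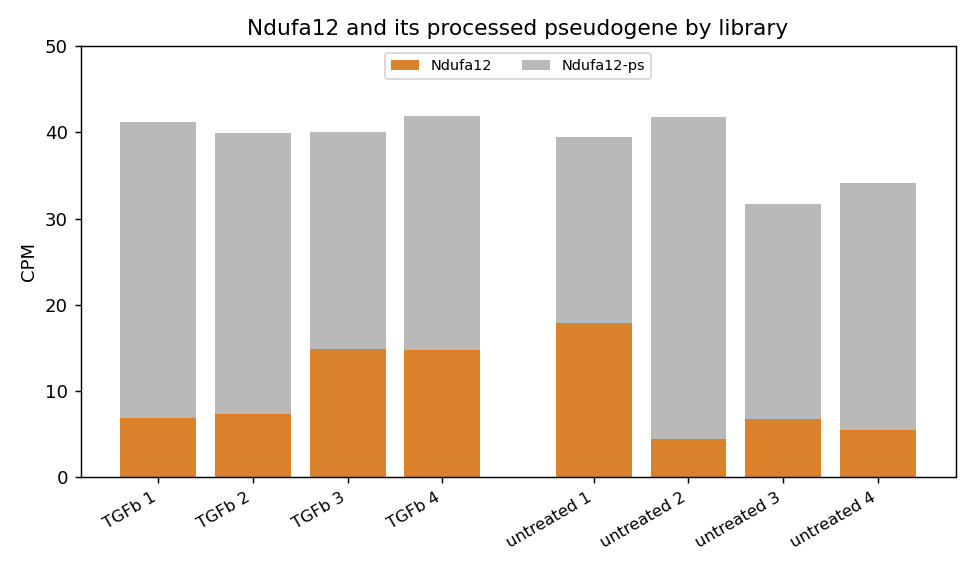
CPM (y axis, from 0) of Ndufa12 and of its processed pseudogene Ndufa12-ps, stacked, in each TGFb and untreated library (x axis). The height of the Ndufa12 part differs between libraries of the same group, from 4.44 CPM in untreated 2 to 17.9 CPM in untreated 1, while the stacked total varies less in proportion.

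Complex II, succinate dehydrogenase, belongs to the citrate cycle and to the respiratory chain and is encoded wholly in the nucleus. None of its 4 subunits was called. Sdha, the flavoprotein that oxidises succinate, had 164, 177, 162 and 171 CPM in TGFb libraries 1 to 4, against 183, 177, 170.3 and 183 CPM in untreated libraries 1 to 4, and its log2 fold change was −0.082 ± 0.041 (edgeR adjusted p = 0.129). With library totals it was −0.16 and called as lower (adjusted p = 0.0064). Sdhb, the iron-sulfur subunit, had 92.5, 107, 106 and 106 CPM in TGFb libraries 1 to 4, against 89.6, 93.2, 104 and 95.5 CPM in untreated libraries 1 to 4, with a log2 fold change of 0.11 ± 0.052 (edgeR adjusted p = 0.113). TGFb 1 was far below the other TGFb libraries, and without it Sdhb was 0.16 higher and called (edgeR adjusted p = 0.0178). It was also called without untreated 3, the highest untreated library, at 0.15 (edgeR adjusted p = 0.0357). With the gene length trend taken out, Sdhb was called at 0.18 (edgeR adjusted p = 0.00424), or 0.16 when untreated 1 was left out as well (adjusted p = 0.0159). That setting also raised the median of all genes, to 0.080 and 0.081. The membrane anchor Sdhc had 89.2, 98.0, 98.5 and 98.1 CPM in TGFb libraries 1 to 4 and 102, 93.5, 101 and 97.4 CPM in untreated libraries 1 to 4, and again TGFb 1 was the lowest library of its group. Sdhd, the other anchor, had 88.0, 90.2, 80.6 and 86.9 CPM in TGFb libraries 1 to 4 and 88.8, 87.2, 88.9 and 87.7 CPM in untreated libraries 1 to 4. The log2 fold changes of the anchors were −0.037 ± 0.045 and −0.028 ± 0.044, with 95% intervals of −0.13 to 0.056 and −0.12 to 0.062, and the groups overlapped for all 4 genes.

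Complex III, the cytochrome bc1 complex, had 3 of its 8 subunits called, all as higher. Uqcrq, a small subunit bound to cytochrome b (ENSMUSG00000044894, chr11:53318749-53321658 on GRCm39), had 147, 142, 134 and 133 CPM in TGFb libraries 1 to 4, against 114, 124, 114 and 112 CPM in untreated libraries 1 to 4. Every TGFb library lay above every untreated library, and untreated 2 lay apart from the other untreated libraries, which were close together. The log2 fold change was 0.26 ± 0.045 (edgeR adjusted p = 7.83e-05), 0.24 without untreated 1 (adjusted p = 0.000324), and it was called under all 22 alternatives tried, with values from 0.18 to 0.32. Uqcrc1 (ENSMUSG00000025651, chr9:108765701-108778691 on GRCm39), a core protein related to mitochondrial processing peptidases, had 166, 177, 168 and 170.0 CPM in TGFb libraries 1 to 4, against 153, 149, 153 and 145 CPM in untreated libraries 1 to 4. The groups did not overlap, and untreated 1 was not the lowest library. It rose by 0.18 ± 0.039 (edgeR adjusted p = 0.000619), and by 0.19 without untreated 1 (adjusted p = 0.00100), and of the 22 alternatives it lost the call only with library totals, at 0.10 (adjusted p = 0.059). Uqcrc2, the other core protein, had 141, 150.3, 148 and 147 CPM in TGFb libraries 1 to 4, against 125, 133, 142 and 131 CPM in untreated libraries 1 to 4. TGFb 1 lay below untreated 3, so the groups overlapped, and the log2 fold change was 0.14 ± 0.043 (edgeR adjusted p = 0.0118), or 0.11 without untreated 1 (adjusted p = 0.0593).

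The remaining 5 subunits of complex III were not called. The Rieske iron-sulfur protein Uqcrfs1, which carries electrons on to cytochrome c1, had a log2 fold change of 0.064 ± 0.052 (edgeR adjusted p = 0.360). Uqcrb, which has processed copies elsewhere in the genome, was the only one of negative sign, at −0.12 ± 0.085 (edgeR adjusted p = 0.309), and was called as lower only when untreated 3 was left out. The hinge protein Uqcrh and the small subunits Uqcr10 and Uqcr11 lay between 0.027 and 0.047.

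**Figure D4:**
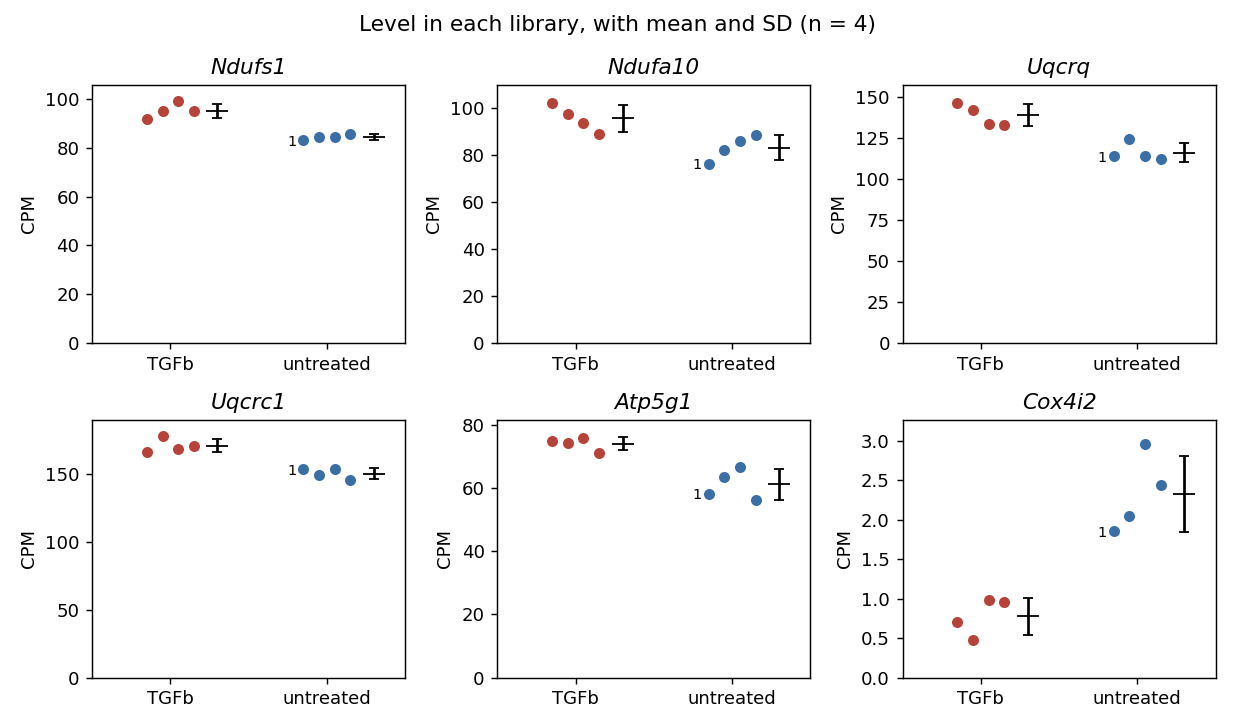
CPM (y axis, from 0) of 6 called subunits in each TGFb and untreated library (x axis), with mean and SD (n = 4); the digit 1 marks untreated replicate 1. The TGFb libraries lie above the untreated ones for the 5 subunits that rose and below them for Cox4i2.

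Complex IV, cytochrome c oxidase, had 15 tested subunits, of which none rose and 1 fell, and it holds the subunit genes with tissue-variant forms. Cox4i2 (ENSMUSG00000009876, chr2:152596093-152606957 on GRCm39), the variant of subunit 4 best known from lung and from smooth muscle and pericytes and linked to oxygen sensing, was the only subunit that fell. It had 10, 7, 14 and 16 counts in TGFb libraries 1 to 4, against 28, 31, 44 and 41 counts in untreated libraries 1 to 4, which is 0.704, 0.483, 0.984 and 0.953 CPM against 1.86, 2.05, 2.96 and 2.44 CPM. Each TGFb library lay below each untreated library. The log2 fold change was −1.56 ± 0.29 (edgeR adjusted p = 0.000169), and −1.66 without untreated 1 (adjusted p = 0.000156). It was called under all 21 alternatives that kept it, and the filter at 50 counts in 4 libraries removed it. Cox4i1, the form present in most tissues (ENSMUSG00000031818, chr8:121394961-121400946 on GRCm39), had 337, 358, 328 and 335 CPM in TGFb libraries 1 to 4, against 315, 341, 335 and 335 CPM in untreated libraries 1 to 4. Its log2 fold change was 0.034 ± 0.038 with a 95% interval of −0.045 to 0.11. By FPKM, the authors' value per gene length, Cox4i2 made up 0.454% ± 0.148 of both forms in TGFb and 1.36% ± 0.263 in untreated libraries (SD, n = 4 each).

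Markers of other cell types moved beside Cox4i2. Of the 4 mural markers tested, Cspg4 and Rgs5 rose by 1.60 ± 0.080 and 2.42 ± 0.25 and Notch3 fell by 0.57 ± 0.065 (edgeR adjusted p = 3.68e-13, 6.08e-08 and 3.65e-08), and the 6 summed to 84.2 to 95.7 CPM in TGFb and 63.1 to 71.6 CPM in untreated libraries. Of the 6 epicardial and mesothelial markers, all tested, Upk3b, Lrrn4 and Krt19 fell and none rose, with a median log2 fold change of −0.45, and they summed to 597 to 641 CPM in TGFb and 849 to 871 CPM in untreated libraries. The endothelial markers, with 2 of 6 higher and 2 lower, overlapped in their sums, at 61.3 to 67.7 CPM in TGFb and 64.8 to 66.6 CPM in untreated libraries, as did the macrophage markers, with 1 of 5 tested higher and 1 lower, at 158 to 189.8 CPM in TGFb and 176 to 212 CPM in untreated libraries. The part of mural, epicardial, endothelial or macrophage cells or of cardiomyocytes in the fall of Cox4i2 was not tested.

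The other variants known from heart and skeletal muscle were at low levels. Cox6a2, the striated muscle form of subunit 6a, had 1.41, 0.966, 1.26 and 1.01 CPM in TGFb libraries 1 to 4, against 1.52, 1.46, 1.61 and 2.08 CPM in untreated libraries 1 to 4. All TGFb libraries lay below all untreated libraries, yet the edgeR test did not call it (log2 fold change −0.53 ± 0.27, adjusted p = 0.134), while limma on log2(FPKM + 1) did, at −0.35 on that scale (adjusted p = 0.0241). Its general form Cox6a1 was the most abundant subunit by the authors' FPKM (336 ± 23.1 FPKM in TGFb and 332 ± 14.7 FPKM in untreated libraries). Cox6a1 had 256, 249, 231 and 222 CPM in TGFb libraries 1 to 4, against 227, 251, 232 and 236 CPM in untreated libraries 1 to 4, and its log2 fold change was 0.016 ± 0.046. Cox7a1, the muscle form of subunit 7a, had 12, 9, 9 and 7 counts in TGFb libraries, against 9, 11, 3 and 6 counts in untreated libraries, and Cox8b, the muscle form of subunit 8, had 7, 3, 3 and 1 counts in TGFb libraries, against 8, 7, 3 and 10 counts in untreated libraries. Neither passed the filter. The summed cardiomyocyte markers were lower in every TGFb library than in any untreated library, and their part in these values was not tested. Cox6b2, known from testis, had 2.11, 2.28, 1.76 and 1.31 CPM in TGFb libraries 1 to 4 and 1.86, 1.32, 1.75 and 2.08 CPM in untreated libraries 1 to 4, with a log2 fold change of 0.075 ± 0.26. Cox7b2 and Cox8c had no count in any library.

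The general forms of complex IV showed little difference. Cox5a, a matrix-side subunit, had 67.8, 71.6, 72.1 and 67.9 CPM in TGFb libraries and 63.4, 62.3, 69.2 and 65.4 CPM in untreated libraries, and the largest positive log2 fold change of the complex at 0.10 ± 0.048 (edgeR adjusted p = 0.107). Cox6b1, which faces the intermembrane space, had 90.1, 91.0, 81.0 and 83.6 CPM in TGFb libraries and 81.2, 88.5, 76.2 and 89.9 CPM in untreated libraries. Cox7b had 60.5, 54.5, 53.3 and 49.7 CPM in TGFb libraries and 51.4, 54.8, 50.1 and 56.3 CPM in untreated libraries. Neither pair of groups separated, and the log2 fold changes were 0.040 ± 0.054 and 0.034 ± 0.060. Cox7a2, the general form of subunit 7a, had 75.6, 62.7, 62.5 and 63.4 CPM in TGFb libraries and 49.0, 69.7, 70.6 and 67.4 CPM in untreated libraries, with TGFb 1 the highest and untreated 1 the lowest library by far. Its log2 fold change was 0.041 ± 0.085, and −0.073 without untreated 1. Cox8a had 138, 121, 122 and 122 CPM in TGFb libraries and 112, 149, 129 and 129.8 CPM in untreated libraries, and its log2 fold change was −0.050 ± 0.063, or −0.12 without untreated 1 (edgeR adjusted p = 0.0996). Cox7a2l, a factor of respiratory supercomplex assembly, had 97.3, 101, 108 and 109 CPM in TGFb libraries and 101, 108, 98.8 and 109 CPM in untreated libraries, with a log2 fold change of −0.0048 ± 0.046 and a 95% interval of −0.10 to 0.092. Cox5b, Cox6c and Cox7c lay between 0.020 and 0.050, and Cox5b-ps, annotated as coding in the table despite its name, at 0.032 ± 0.12. Cox5b matches 100% of the Cox5b-ps transcript at 95% identity or more, and the value of this copy is the median of complex IV with TMM factors.

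Complex V, the ATP synthase, consists of the F1 head with its central stalk, a peripheral stalk and a membrane part with a ring of c subunits. The c subunit is encoded by 3 genes, Atp5g1 to Atp5g3, that give the same mature protein. Atp5g1 (ENSMUSG00000006057, chr11:95959678-95966496 on GRCm39), the one known to vary most with tissue and growth state, had 74.9, 74.1, 75.7 and 71.1 CPM in TGFb libraries 1 to 4, against 58.1, 63.3, 66.7 and 56.2 CPM in untreated libraries 1 to 4. The groups did not overlap, and untreated 4, not untreated 1, was the lowest library. The log2 fold change was 0.28 ± 0.053 (edgeR adjusted p = 0.000261), 0.25 without untreated 1 (adjusted p = 0.00127), and it was called under all 22 alternatives, with values from 0.18 to 0.37. The copy Gm10039 matches 67.2% of its transcript and held 38.5% of the counts of both, and summed over both the log2 fold change was 0.24 ± 0.043 (edgeR adjusted p = 0.000100). Atp5g2 had 121, 109, 104 and 107 CPM in TGFb libraries and 87.5, 123, 114 and 107 CPM in untreated libraries, with untreated 1 the lowest, and Atp5g3 had 155, 145, 159 and 166 CPM in TGFb libraries and 154, 156, 154 and 156 CPM in untreated libraries. Their log2 fold changes were 0.031 ± 0.072 and 0.012 ± 0.042 and neither was called. By FPKM, Atp5g1 made up 9.88% ± 0.461 of the 3 c subunit genes in TGFb and 8.41% ± 0.523 in untreated libraries (SD, n = 4 each), without overlap, and Atp5g3 made up 47.0% ± 2.21 and 48.2% ± 3.14. The size of these shares rests on the gene lengths used, 4912 bases for Atp5g1, 1675 for Atp5g2 and 2181 for Atp5g3. Their canonical transcripts in GENCODE M39 have 612, 731 and 988 bases.

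Of the 5 subunits of the F1 head and central stalk, Atp5b rose and 4 were not called. Atp5b, the catalytic beta subunit and by count the highest of all members, had 894, 957, 906 and 877 CPM in TGFb libraries 1 to 4, against 834, 850.1, 833 and 868 CPM in untreated libraries 1 to 4. The groups did not overlap, and the log2 fold change was 0.10 ± 0.035 (edgeR adjusted p = 0.0270), or 0.090 without untreated 1 (adjusted p = 0.0663), which was not called. Per gene length it was among the 3 most abundant members with Cox6a1 and Cox4i1, at 211 ± 8.19 FPKM in TGFb and 197 ± 4.18 FPKM in untreated libraries. The order of these 3 rests on the gene lengths used, 4237 bases for Atp5b, 702 for Cox6a1 and 1550 for Cox4i1. Their canonical transcripts have 1926, 571 and 783 bases. None of the 4 peripheral stalk subunits was called, and their log2 fold changes ran from −0.010 for Atp5j to 0.064 for Atp5o. Atp5md, a small membrane subunit also called DAPIT, had 56.3, 54.3, 55.4 and 62.6 CPM in TGFb libraries 1 to 4, against 48.1, 54.9, 48.3 and 53.9 CPM in untreated libraries 1 to 4. Untreated 2 lay above TGFb 2, and the log2 fold change of 0.16 ± 0.059 (edgeR adjusted p = 0.0432) was not called without untreated 1, at 0.12 (adjusted p = 0.143). Atp5k, the membrane subunit e, had the lowest log2 fold change of the complex at −0.17 ± 0.11 and was not called (edgeR adjusted p = 0.242). The other 3 membrane subunits tested, Atp5l, Atp5j2 and Atp5mpl, and the F1 subunits Atp5a1, Atp5c1, Atp5d and Atp5e lay between −0.023 and 0.16, and none was called. A second row with the symbol Atp5o had no count in any library.

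Leaving out untreated 1 reduced the log2 fold change of 71 of the 81 subunits. In that fit 4642 of 14149 genes, or 32.8%, were called, 2155 or 15.2% as higher and 2487 or 17.6% as lower. Of the subunits, 7 rose and 1 fell: Ndufs1, Ndufa10, Ndufa2, Uqcrq, Uqcrc1, Atp5g1 and Cox4i2 were called in both fits, and Ndufa12 was called in this fit alone. The 7 that lost the call, Ndufs8, Ndufv2, Ndufs4, Ndufa9, Uqcrc2, Atp5b and Atp5md, kept a positive sign. By complex, 4 subunits of complex I, 2 of complex III and 1 of complex V rose, and 1 of complex IV fell. The median log2 fold change was 0.029, with 0.065 for complex I, −0.028 for complex II, 0.025 for complex III, 0.00030 for complex IV and 0.031 for complex V, against −0.00052 for all genes tested. With library totals and without untreated 1 the subunit median was −0.035. Over all genes tested, the median difference of untreated 1 from the mean of the other untreated libraries ran with transcript length. Length here is that of the canonical transcript in GENCODE M39, not the gene length behind the FPKM and the length trend. The difference went from −0.056 on the log2 scale for the 1184 genes under 1000 bases to 0.025 for the 5393 of 4000 bases or more. Among the subunits it did not follow that order throughout: it was −0.11 for the 40 under 1000 bases, −0.053 for the 21 from 1000 to under 2000 bases, −0.033 for the 15 from 2000 to under 4000 bases and −0.12 for the 5 of 4000 bases or more. Whether length or another property of that library underlies the difference was not tested.

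**Figure D5:**
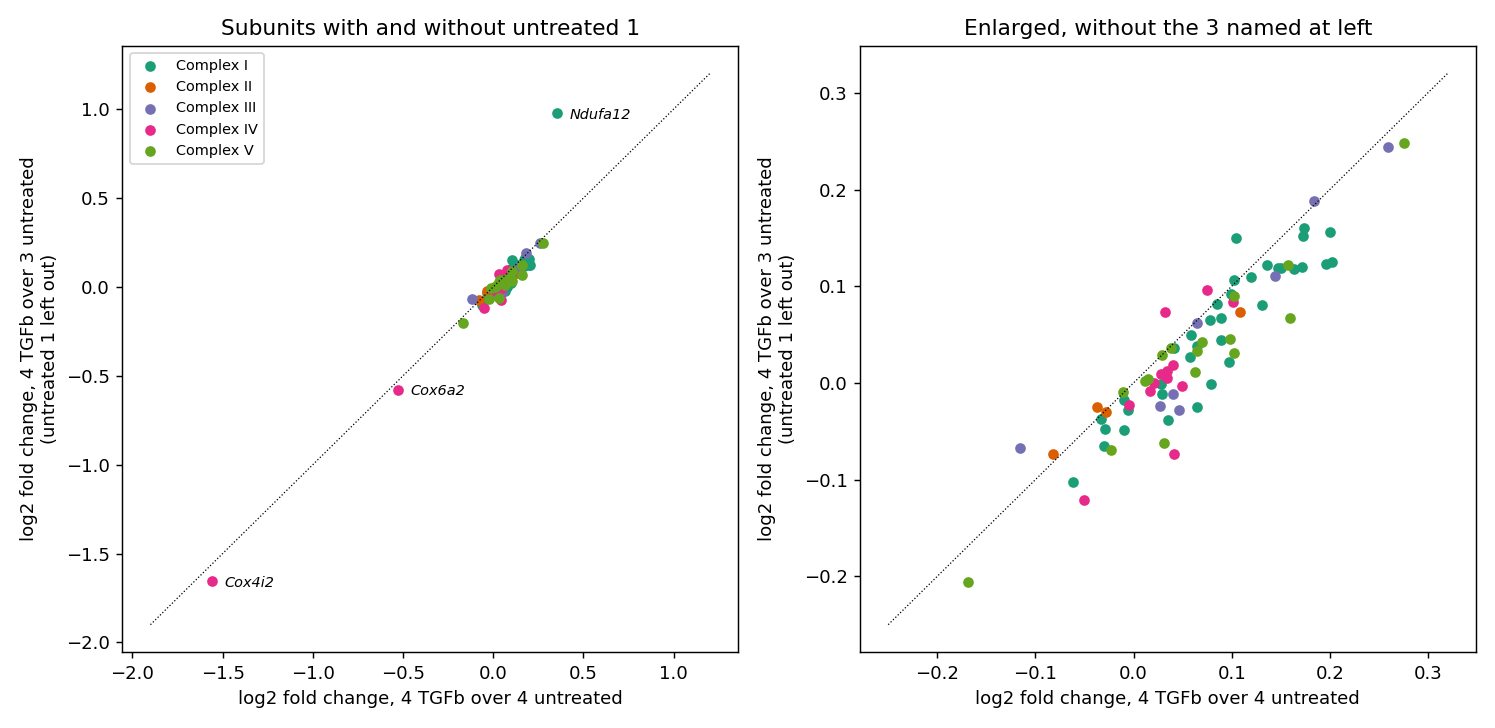
Log2 fold change of the 81 tested subunits with all 8 libraries (x axis) and without untreated replicate 1 (y axis), colored by complex, with the line of equality dotted. Of the points, 71 lie below the line, and Ndufa12, at 0.35 and 0.98, lies farthest above it.

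Without overlap between the CPM of the groups, 2302 or 16.5% of all genes tested lay above in TGFb and 2429 or 17.4% below. Of the 81 subunits, 8 lay above and 2 below. The 8 above were all among the 13 that rose, and the 2 below were Cox4i2 and Cox6a2.

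Other genes of the pathway were counted in the same fit with TMM factors, and their medians carry the same shift with library totals. Of 11 partner genes outside the naming rule, 5 rose, none fell, and the median log2 fold change was 0.12. They included Higd2a, a complex IV assembly and supercomplex factor, with 49.9, 43.2, 46.5 and 47.6 CPM in TGFb libraries 1 to 4, against 32.9, 38.1, 41.4 and 40.6 CPM in untreated libraries 1 to 4, a log2 fold change of 0.29 ± 0.068 (edgeR adjusted p = 0.00174). Chchd10, a protein of the intermembrane space, rose by 0.40 ± 0.11 (edgeR adjusted p = 0.00579) and the phosphate carrier Slc25a3 by 0.12 ± 0.038 (edgeR adjusted p = 0.0178). Of 46 tested assembly factors, 5 rose and none fell, with a median of 0.097. Tmem70, which helps assemble complex V, averaged 28.5 ± 1.24 CPM in TGFb and 23.7 ± 0.255 CPM in untreated libraries (SD, n = 4 each), and its log2 fold change was 0.27 ± 0.064 (edgeR adjusted p = 0.00227). Timmdc1, a complex I assembly factor, rose by 0.26 ± 0.075, and Coa3, a complex IV assembly factor, by 0.18 ± 0.052 (edgeR adjusted p = 0.00871 and 0.00968). These shares stand against 17.6% of all genes that rose.

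The subunits encoded in mitochondrial DNA summed to 11244 to 13901 CPM in TGFb and 10670 to 13089 CPM in untreated libraries, with wide overlap. Of 12 tested, 2 rose and 1 fell, against 17.6% and 18.5% of all genes tested. The median log2 fold change was 0.058 with all libraries and 0.0020 without untreated 1. The most abundant, mt-Co1, had 5524, 4584, 4767 and 4996 CPM in TGFb libraries 1 to 4, against 4462, 5060.2, 5389 and 4619 CPM in untreated libraries 1 to 4. The calls fell on genes with uneven counts: mt-Co3 had 34.3, 63.8, 19.1 and 89.2 CPM in TGFb libraries and 16.4, 18.5, 19.2 and 21.3 CPM in untreated libraries, and mt-Atp6 had 21.8, 19.3, 17.9 and 27.4 CPM in TGFb libraries and 24.3, 59.5, 24.2 and 25.2 CPM in untreated libraries. Within TGFb, mt-Co3 was high in libraries 2 and 4 and near the untreated level in library 3, and for mt-Atp6 untreated 2 was high. Their log2 fold changes were 1.46 ± 0.28 and −0.62 ± 0.21 (edgeR adjusted p = 0.000221 and 0.0277). Both sat far below mt-Co1, and the sources used here do not say how reads shared by mitochondrial DNA and its nuclear copies were counted. mt-Nd6 rose by 0.13 ± 0.048 (edgeR adjusted p = 0.0325) and was not called without untreated 1.

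Among 17 genes of the citrate cycle and pyruvate dehydrogenase, 3 rose and 2 fell, against 17.6% of all genes tested that rose and 18.5% that fell, with a median of 0.046. Idh2, the mitochondrial NADP-dependent isocitrate dehydrogenase, fell, with 28.7, 29.7, 29.4 and 27.5 CPM in TGFb libraries and 56.7, 57.0, 57.2 and 62.3 CPM in untreated libraries and a log2 fold change of −1.02 ± 0.056 (edgeR adjusted p = 1.84e-12). Mdh2, the mitochondrial malate dehydrogenase, rose by 0.25 ± 0.037 (edgeR adjusted p = 8.85e-06), and Suclg2, a subunit of succinyl-CoA ligase, fell, at −0.26 ± 0.061 (edgeR adjusted p = 0.00179). Of 14 regulators tested, 1 rose and 3 fell, with a median of 0.035, and without untreated 1 the numbers were 1 and 1, with a median of 0.018. Ppargc1a, the coactivator PGC-1α, was low and fell, with 0.352, 0.276, 0.773 and 0.417 CPM in TGFb libraries and 1.33, 1.92, 1.28 and 0.953 CPM in untreated libraries and a log2 fold change of −1.57 ± 0.37 (edgeR adjusted p = 0.00200). Tfb2m, a transcription factor of mitochondrial DNA, rose by 0.38 ± 0.085, and Ppard, a nuclear receptor of fatty acid metabolism, fell, at −0.19 ± 0.068 (edgeR adjusted p = 0.00117 and 0.0336). Without untreated 1, Ppard was not called (adjusted p = 0.0550), nor was the coactivator gene Ppargc1b (adjusted p = 0.0624), the third that fell with all libraries. Of 11 coenzyme Q genes, 3 rose and 1 fell, with a median of 0.096. Coq3, a methyltransferase of coenzyme Q synthesis, rose by 0.44 ± 0.081 (edgeR adjusted p = 0.000148), Coq8b by 0.31 ± 0.11 (edgeR adjusted p = 0.0336), and Coq8a, its paralogue, fell, at −0.84 ± 0.24 (edgeR adjusted p = 0.00764).

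Of 77 mitochondrial ribosomal protein genes tested, 14 rose and 2 fell, against 17.6% and 18.5% of all genes tested, with a median of 0.091 with TMM factors. Without untreated 1, 12 rose and 2 fell, against 15.2% and 17.6% of all genes, with a median of 0.055. The smallest p belonged to Mrps6, which fell, at −0.38 ± 0.059, and to Mrpl52 and Mrpl20, which rose by 0.34 ± 0.064 and 0.28 ± 0.056 (edgeR adjusted p = 2.51e-05, 0.000232 and 0.000368). Of 85 cytosolic ribosomal protein genes, 34 rose and 2 fell, against 17.6% and 18.5% of all genes tested, with a median of 0.12. Without untreated 1 the counts were 23 and 2, against 15.2% and 17.6% of all genes, with a median of 0.077. Rps27l and Rpl27a rose by 0.33 ± 0.048 and 0.19 ± 0.039, and Rpl22l1 fell, at −0.49 ± 0.093 (edgeR adjusted p = 7.63e-06, 0.000463 and 0.000242). All 17 cell division genes fell, with a median of −2.60. Mki67, a marker of cycling cells, averaged 7.85 ± 2.07 CPM in TGFb and 64.5 ± 2.15 CPM in untreated libraries (SD, n = 4 each). The part of cell division in the values of the subunits was not tested.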

How the data were processed

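RNA of 8 cultures was sequenced after poly(A) selection with random-primed libraries, per the labels' protocols. Tools named in the submitters' processing notes are HISAT2, featureCounts, Subread and CASAVA, with no version. No source used here gives the strand setting of the counting. The deposited count table holds whole read counts per gene, not normalized. The FPKM table deposited by the authors is proportional, within each library, to count over gene length. The notes name GRCm38 and the series design mm39; the file's gene coordinates overlap GENCODE M39 (GRCm39) for 99.9% of coding genes and RefSeq GRCm38.p6 for 16.0%, and are read as GRCm39.

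Groups were taken from the labels. Counts were filtered with filterByExpr (minimum count 10, minimum total 15), scaled with TMM and tested with edgeR 4.0.16 (quasi-likelihood, group only, two-sided, Benjamini-Hochberg over all genes tested, called under 0.05) in R 4.3.3. Each SE was obtained by dividing the log2 fold change by the root of its F statistic. The biological coefficient of variation was 6.27%. On simulated counts for 13777 genes with group sizes as here, 50 genes were changed at each fold change. They were drawn at random from all genes but those with the lowest counts, not from the subunits. Far fewer genes differed than the 36.0% called in these data, so an adjusted p under 0.05 was harder to reach in the simulation. There the test found 2% of the genes with a 1.1-fold change. It found 56% of those with a 1.25-fold change, 82% of those with a 1.5-fold change and 94% of those with a 2-fold change, and 4 unchanged genes were called. Replicate pairs differed by more than sampling noise, so no library was counted as a duplicate. Copies were found by aligning transcripts to annotated transcripts at 95% identity over 100 bases or more. Of the 81 tested subunits, 13 had such copies over at least 50% of the transcript. Intervals are 95% and are for the log2 fold change between the groups, with a width set by the spread between these cultures.

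The members, the gene lists and the roles were chosen with earlier results of these data known. Of the cytosolic ribosomal list, kinases and binding proteins whose symbols match were left out. Full values are given for the 10 called members with the largest change at 5 CPM or more, the 3 of each complex with the smallest p, complex II, tissue variants and their partners, and the 3 most abundant by FPKM; other members are described where a result turns on them. Alternatives were scaling by RLE, by upper quartiles or by library totals, other filters on low counts, a length offset, the replicate block, DESeq2 1.42.0, limma 3.58.1 on log2(FPKM + 1) and log2(FPKM + 0.1), each library left out, and, chosen after seeing the data, ribosomal RNA genes removed, scalings without untreated 1, and copies summed. The result of 1 member is not reported here.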

Additional observations from a re-analysis of the deposited data

Results flagged for a closer look

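Among 76 sets of 4 libraries examined, the values of named subunits and of complex sums in each group, 10 had 1 library far from the other 3, where chance gives about 1 in 20. The gap between the outlying library and its nearest neighbour took up most of the range of its group in each case.

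In TGFb replicate 1, Cox7a2 was highest at 75.6 CPM and Cox8a highest at 138 CPM, while Sdhb was lowest at 92.5 CPM and Sdhc lowest at 89.2 CPM. In untreated replicate 1, Ndufa12 was highest at 17.9 CPM, and Cox7a2 and Ndufs4 were lowest at 49.0 and 32.7 CPM. In untreated replicate 2, Ndufa2 was highest at 64.1 CPM, Uqcrq highest at 124 CPM, and the sum of complex II lowest at 451 CPM. Without TGFb replicate 1, Sdhb was called as higher (edgeR adjusted p = 0.0178). Without untreated replicate 1, Ndufs4 lost its call and Ndufa12 gained one. Ndufa2 and Uqcrq were called whichever single library was left out.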

How the results depend on the processing

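Of the called subunits, Uqcrq, Atp5g1 and Cox4i2 were called under every alternative that kept them, and no called subunit changed sign under any alternative. The counts rested on the scaling: with library totals 2 subunits were higher and 2 lower, and all genes split into 1304 higher and 3670 lower; without untreated 1 as well, 4 and 3 subunits and 1308 and 3262 genes. With a gene length trend taken out, 30 subunits and 4055 genes were higher, and 24 and 3816 without untreated 1. As that setting also moved the scaling of all genes, the part of length in these counts was not separated from it. Requiring a log2 fold change of at least 0.5 left 0 subunits higher, and 492 genes higher and 1337 lower. A filter of 50 counts in 4 libraries left 0 lower, and limma on log2(FPKM + 1) or + 0.1 gave 2 lower each, Cox4i2 and Cox6a2. Leaving out each library in turn gave 7 to 15 higher, fewest without untreated 1, and 1 to 2 lower.

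The subunit median was −0.022 with library totals, 0.096 with the length offset and −0.035 with library totals without untreated 1. The median of all genes moved as well, to −0.073, 0.080 and −0.064. With the length offset the subunit median thus lay 0.015 above that of all genes, or 0.0099 without untreated 1, against 0.052 in the main fit. For complex I the median was 0.0094 and 0.0013 with library totals, with and without untreated 1, for complex II −0.11 and −0.091, for complex III −0.024 and −0.038, for complex IV −0.050 and −0.063, and for complex V −0.017 and −0.033. With the length offset, with and without untreated 1, the median was 0.031 and 0.048 for complex II and 0.13 and 0.12 for complex V. For all genes it was then 0.080 and 0.081. Leaving out a single library moved the complex III median between 0.025 and 0.13. The cause was not tested.

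The replicate number as a block gave 14 subunits higher and 1 lower, beside 2416 genes higher and 2555 lower. Libraries with the same number did not deviate together (correlations of −0.040, −0.023, 0.022 and 0.052), so the numbers were not taken as pairs. Differences of 1.1-fold were mostly missed in the simulation, and most subunit fold changes were smaller than that, with a median absolute log2 value of 0.065. The changed genes there were not drawn from the subunits, whose median level was 65.1 CPM, against 22.3 CPM for all genes tested. The simulation also held far fewer changed genes than these data. For both reasons it does not give the share of subunits that could be called here. Among the subunits, the smallest change called was that of Atp5b, at 0.10 ± 0.035 on the log2 scale, and 67 were not called. Cox4i2, Cox6a2 and the muscle variants rest on few counts.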
